A study of Arabidopsis thaliana with 12 samples.

Results

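In seedlings of Arabidopsis thaliana, 45 of 32548 genes stood higher in each of 3 chromatin reader mutants than in wild type and at nearly the same level in all 3. The single mutant gte4 carried gte4-/-, the double mutant eml1-/-eml2-/-, and the triple mutant all of these alleles (gte4-/-eml1-/-eml2-/-). Each genotype had 3 libraries, the wild type included. The genes were selected on their own values. The mean over the 12 libraries had to be at least 20, which 18249 genes reached. Each mutant's mean + 1 had to be at least 2.0 times that of the wild type, the largest mutant mean at most 1.5 times the smallest, and every mutant library above every wild-type library. SEP3 (AT1G24260) and PI (AT5G20240) met these conditions and were left out by name. Every rise over wild type and the likeness of the mutants were thus chosen by the rule, so they are described below without a test. All 3 comparisons share the same 3 wild-type libraries, and one low wild-type reading raises all 3 ratios of a gene together.

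GTE4 is a bromodomain protein of the BET class, which binds acetylated lysines on histone tails. EML1 and EML2 are EMSY-like proteins with a Tudor-type Agenet domain, a fold that can read histone methylation. The title of the study places both in one complex that reads acetylation together with trimethylation of lysine 4 of histone H3, marks that are found at the starts of active genes. Setting single, double and triple mutants side by side asks whether loss of one part leaves a gene where loss of both does, and the genes described here were selected for that form.

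Total RNA was taken with TRIzol from plants at 20 days of age, after 12 days on MS medium plates and the rest in soil, at 22 °C with 16 h of light and 8 h of dark. It was sequenced as 150-base read pairs. The deposited values are normalized signals per gene on the scale of read numbers, and add up to between 31990484 and 34322625 per library. They are not whole numbers, so the count behind each value is not known, and a value near 0 carries a large relative error. The labels do not say what the replicate numbers share, so the spread given here is that between libraries, which may be technical. GTE4 transcript stood at 1703 ± 73.6 in wild type and 2178 ± 38.2 in the double mutant (SD, n = 3), against 74.96 ± 21.04 in gte4 and 89.9 ± 9.95 in the triple mutant. EML2 fell from 569 ± 37.4 to 108 ± 11.7 in the double mutant and 30.7 ± 1.74 in the triple mutant. EML1 was at 928 ± 69.6 in wild type and 942 ± 55.3 and 1004 ± 35.7 in the lines that carry its mutation, so its transcript level does not check that label. In RNA of plants with many tissues, a change in the share of cells of one type and a change of RNA per cell cannot be told apart.

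The 45 genes hold 44 that code for proteins and 1 long non-coding RNA. In wild type 20 of them had a mean under 20, 15 lay between 20 and 100, and 10 were above. Their median log2 ratio to wild type, taken on mean + 1, was 1.33 in gte4, 1.28 in the double mutant and 1.44 in the triple mutant, against -0.02, -0.01 and -0.02 over all 18249 genes. Among the mutants the highest mean was in the triple mutant for 22 genes, in the double mutant for 14 and in gte4 for 9. The lowest was in gte4 for 24 genes, in the double mutant for 16 and in the triple mutant for 5. The same counts were not taken over all genes, and the rule used these means, so nothing is read from them. The rule also asks for no overlap with wild type; over all 18249 genes 9.35% had every mutant library above every wild-type library. In a limma fit over all 22315 genes with a mean of at least 1, at an adjusted p under 0.05, 44 of the 45 were higher in gte4, 44 in the double mutant and 45 in the triple mutant. The shares over all genes were 12.1%, 11.6% and 15.4%, and 5.43% of genes were higher in all 3. Nothing is read from the members' counts, since the rule used these contrasts.

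**Figure D1:**
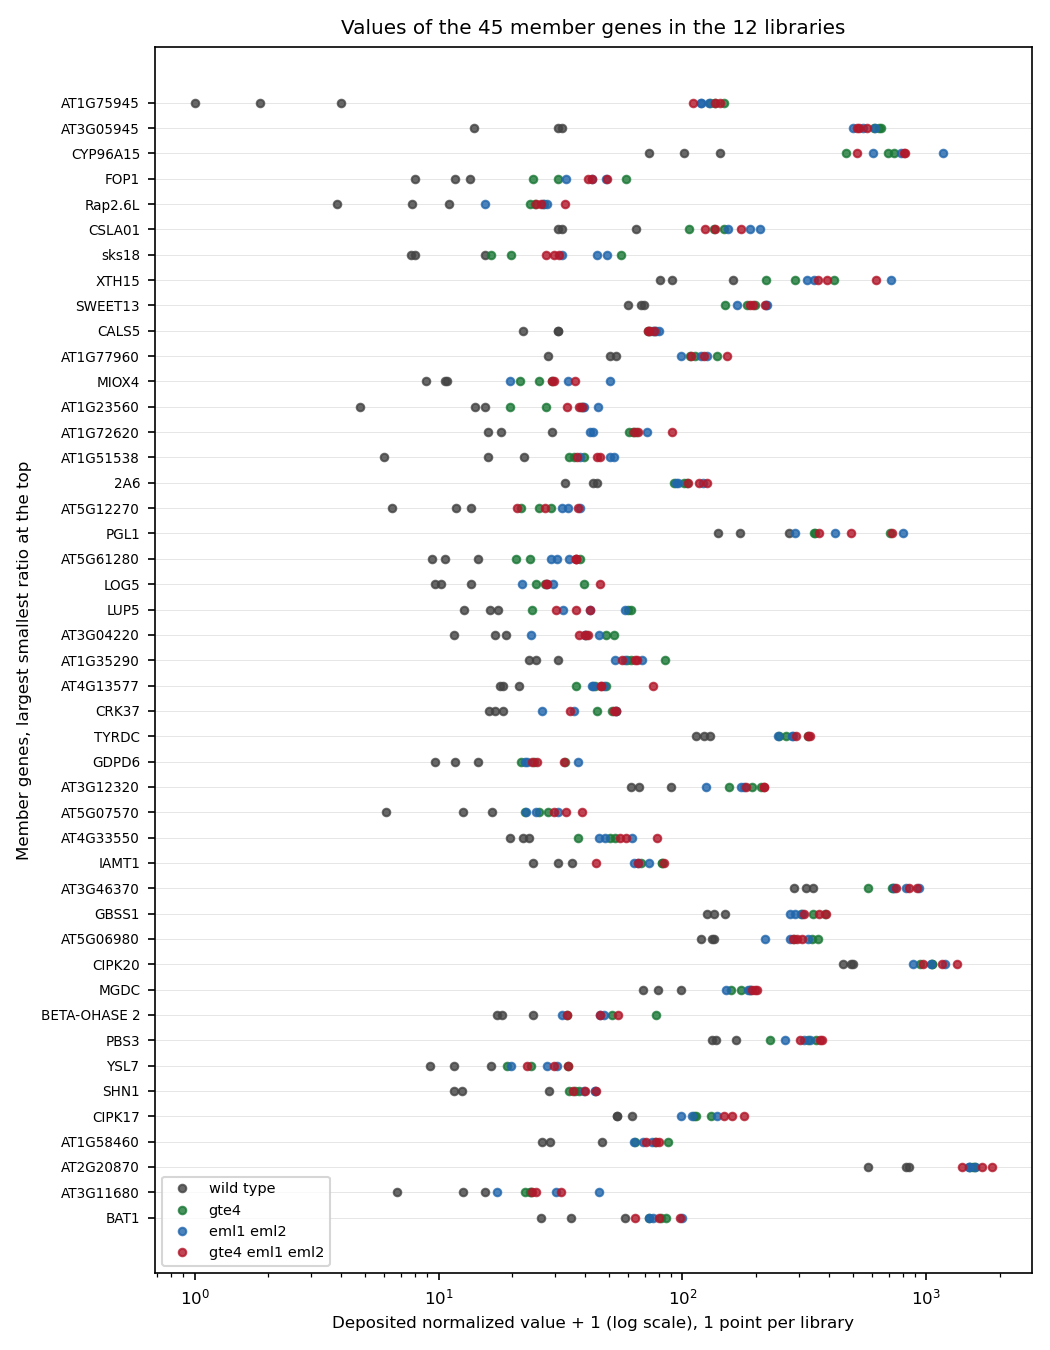
Values of the 45 genes in the 12 libraries, as deposited value + 1 on a log axis, 1 point per library, with genes ordered by the smallest of their 3 ratios to wild type. In each row the 3 wild-type points lie to the left of the 9 mutant points, as the rule requires; the gap is widest for AT1G75945 and AT3G05945 and narrowest for PGL1 and sks18.

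The largest ratios by far were those of 2 short genes, AT1G75945 and AT3G05945. The 250 bases before the annotated starts of both, and of CYP96A15, next in order, are shown because these 3 genes changed the most. Those of AT3G12320 and AT5G06980 are shown because these 2 genes are each other's closest match in the annotation and both are in the set. Sequences are from RefSeq's TAIR10.1, printed 5′ to 3′ with coordinates of that build on the gene's own strand. Capitals mark matches, on either strand, to the G-box CACGTG, the W-box core TTGAC, the DRE core CCGAC, the GCC box GCCGCC, the evening element AAAATATCT, the telo box AAACCCTA, the TATA box TATAAA and the CArG box.
AT1G75945, chr1:28515917-28516166 (- strand): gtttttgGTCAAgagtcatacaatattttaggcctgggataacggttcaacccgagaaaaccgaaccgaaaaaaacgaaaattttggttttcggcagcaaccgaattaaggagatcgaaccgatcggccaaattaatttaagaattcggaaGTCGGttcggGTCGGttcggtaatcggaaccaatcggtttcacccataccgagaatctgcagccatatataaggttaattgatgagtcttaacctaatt
AT3G05945, chr3:11510511-11510760 (- strand): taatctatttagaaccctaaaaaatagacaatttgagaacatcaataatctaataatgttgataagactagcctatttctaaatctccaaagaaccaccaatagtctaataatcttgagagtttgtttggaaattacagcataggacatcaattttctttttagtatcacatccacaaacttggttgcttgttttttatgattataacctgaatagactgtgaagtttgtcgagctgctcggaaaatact
CYP96A15, chr1:21385710-21385959 (- strand): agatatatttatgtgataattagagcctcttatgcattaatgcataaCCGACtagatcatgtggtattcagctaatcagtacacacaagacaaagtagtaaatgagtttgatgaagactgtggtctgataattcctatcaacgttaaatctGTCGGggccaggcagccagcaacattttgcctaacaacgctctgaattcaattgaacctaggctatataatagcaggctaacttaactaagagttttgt
AT3G12320, chr3:3923265-3923514 (+ strand): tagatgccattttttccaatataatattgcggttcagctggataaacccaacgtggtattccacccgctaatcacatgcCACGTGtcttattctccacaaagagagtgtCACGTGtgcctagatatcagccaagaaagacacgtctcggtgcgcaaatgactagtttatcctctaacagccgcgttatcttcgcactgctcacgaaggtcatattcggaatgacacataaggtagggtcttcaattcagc
AT5G06980, chr5:2166870-2167119 (+ strand): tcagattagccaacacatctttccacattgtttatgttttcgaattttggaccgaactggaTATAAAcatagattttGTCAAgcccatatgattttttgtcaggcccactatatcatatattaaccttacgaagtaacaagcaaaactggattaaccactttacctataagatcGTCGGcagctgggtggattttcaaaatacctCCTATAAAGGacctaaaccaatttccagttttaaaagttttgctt

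The window of AT1G75945 held a W-box core at 243 bases and DRE cores at 99 and 89 bases before the start. None of the motifs was found in that of AT3G05945, which says only that these letters are not there. CYP96A15 had DRE cores at 203 and 99 bases. AT3G12320 had 2 G-boxes, at 171 and 141 bases, and AT5G06980 had none. Its window held TATA boxes at 189 and 43 bases, the second within a CArG box at 45 bases, a W-box core at 173 and a DRE core at 76. E-boxes, CANNTG, were searched but not marked: AT3G12320 held 5 and AT5G06980 held 2. With the 50 bases past the start included, AT3G12320 held a DRE core, AT3G05945 a W-box core and AT1G75945 a CArG box. These matches did not lie wholly within the printed bases.

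Over the window from 250 bases before to 50 after the start, a G-box was present in 6 of the 45 genes, or 13.3%, against 8.86% of all 18249 genes. These 6 were AT3G12320, PGL1, YSL7, CALS5, CSLA01 and BETA-OHASE 2. The W-box core was in 46.7% against 50.3% of all genes, the TATA box in 44.4% against 50.7%, the DRE core in 20.0% against 16.3% and the E-box, CANNTG, which includes every G-box, in 68.9% against 62.1%. The evening element, the GCC box and the telo box were each in 1 of the 45 (2.22%), against 3.13%, 2.65% and 5.68% of all genes, and the CArG box in 2 (4.44%), against 3.27%. A match is only a run of letters, and these shares are descriptions with no test.

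AT1G75945 (chr1:28515245-28515916, - strand, 2 exons) is annotated as an uncharacterized protein. Its value was 2.97, 0 and 0.860 in the 3 wild-type libraries, 134, 148 and 129 in gte4, 128, 119 and 119 in the double mutant and 109.7, 135 and 142 in the triple mutant. It was close to 0 in wild type and above 100 in all 9 mutant libraries. The gte4 libraries were all above those of the double mutant, by little, and the triple mutant overlapped both. The ratios on mean + 1 ran from 53.9 to 60.6, and they depend on the 1 that was added: with 5 in its place the smallest was 4.33 on the log2 scale in place of 5.75. The gene lies 960 bases from ATA27 (AT1G75940), a beta-glucosidase gene of the tapetum, the inner layer of the anther that feeds pollen. ATA27 has the opposite strand and is not in the set; its level was 13.4 ± 12.9 in wild type, 205 ± 17.6 in gte4, 456 ± 75.7 in the double mutant and 120.2 ± 43.4 in the triple mutant. Both neighbours were lowest in wild type, but the mutant means of ATA27 were 3.79 times apart where those of AT1G75945 were within the limit of 1.5. SKP1, 602 bases away on the other side, was at 6196 ± 337 in wild type and 7725 ± 581, 6212 ± 172 and 6724 ± 291 in the mutants in the same order, and was called higher in gte4 only.

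AT3G05945 (chr3:11510090-11510510, - strand, 1 exon) is the long non-coding RNA. Its value was 31.1, 30.02 and 12.9 in wild type, 651, 637 and 609.6 in gte4, 549.6, 499 and 616 in the double mutant and 529, 516 and 568 in the triple mutant. The lowest mutant library was 16.0 times the highest wild-type library. The triple mutant lay below gte4 without overlap and the double mutant overlapped both; the ratios of the means ran from 20.97 to 24.7. Its annotated neighbours are 8665 and 17245 bases away, and neither was called in any of the 3 comparisons. Whether the authors divided by gene length is not given; with the values taken as not divided, it stood per kilobase of exon at 58.7 in wild type and at 1503, 1318 and 1278 in the mutants, which in the mutants was second among the 45 after AT2G20870. Poly(A) selection or ribosomal depletion is not stated in the labels, so how fully a non-coding RNA is covered is not known.

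**Figure D2:**
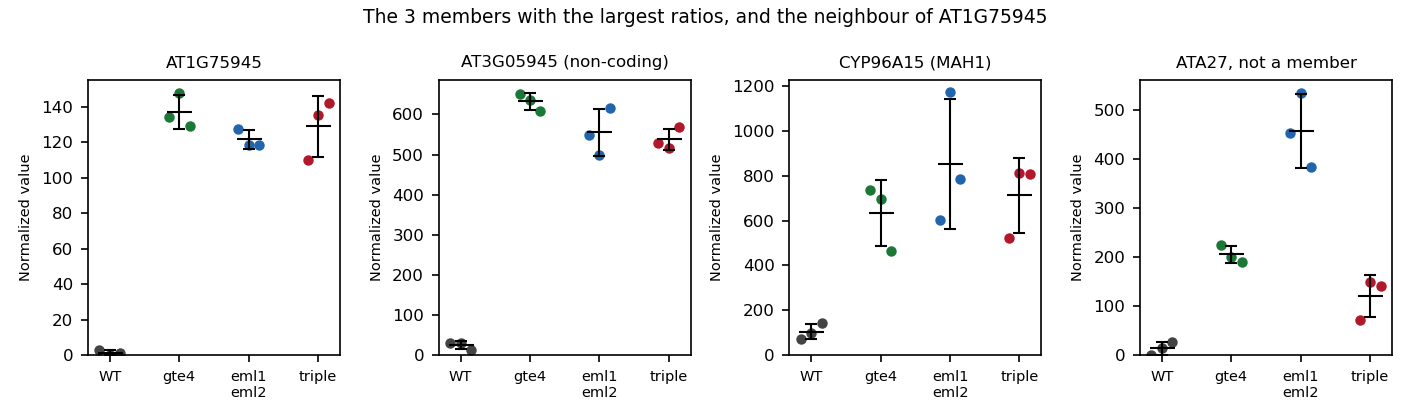
Deposited normalized values of AT1G75945, AT3G05945, CYP96A15 and ATA27 in each library (points), with the mean and SD of each genotype (bars, n = 3). The first 2 genes lay near the bottom of the axis in wild type and at similar levels in all mutants, CYP96A15 scattered more, and ATA27, which is not in the set, was highest in the double mutant.

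Genes of lipids and the plant surface formed the next group, with 8 members and median ratios of 2.40 in gte4, 2.40 in the double mutant and 2.38 in the triple mutant. Aerial plant organs are covered by cutin and waxes, which the epidermis makes from long fatty acids. CYP96A15, also called MAH1, hydroxylates wax alkanes to secondary alcohols and ketones. Its value was 72.1, 100.4 and 142 in wild type, 737, 698 and 465 in gte4, 604, 1172 and 787 in the double mutant and 521, 814 and 807 in the triple mutant. In the mutants it was the most variable of the 3 top genes, and its ratios ran from 5.99 to 8.08. FOP1, an acyltransferase of the wax ester synthase family, was at 12.5, 10.6 and 6.99 in wild type, 57.5, 29.9 and 23.4 in gte4, 32.4, 47.6 and 41.7 in the double mutant and 41.4, 47.9 and 39.8 in the triple mutant. Its first gte4 library was well above its other gte4 libraries, and all 9 mutant libraries were above wild type, as the rule requires.

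SHN1, also called WIN1, encodes an ERF transcription factor known to switch on wax and cutin genes. It was at 10.6, 11.5 and 27.3 in wild type and from 33.4 to 43.4 in the mutants; the wild-type library numbered 3 was close to the mutants and the first 2 were well below. MGD3 (listed as MGDC), which makes galactolipid when phosphate is scarce, went from 81.4 ± 15.1 to 173 ± 15.7, 174 ± 21.2 and 197 ± 4.11. ALT1 (AT1G35290), an acyl-lipid thioesterase, went from 25.5 ± 3.99 to means between 58.8 and 67.4. AT4G33550, a protein of the lipid-transfer family, LUP5, of the triterpene cyclases, and GDPD6, a glycerophosphodiester phosphodiesterase, had smallest ratios of 2.16, 2.351 and 2.22.

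The cell wall and sugar group had 9 members, with median ratios of 2.64 in gte4, 3.09 in the double mutant and 2.83 in the triple mutant. CSLA01, of a family that makes the mannan backbone of the wall, was at 31.1, 29.8 and 63.4 in wild type, 147, 105 and 134 in gte4, 153, 206 and 188 in the double mutant and 122, 136 and 172 in the triple mutant. All mutant libraries lay above the highest wild-type library, as the rule requires, and the third wild-type library was about 2 times the other 2. CALS5 is the callose synthase that lays the callose wall around developing pollen. It was at 29.95, 29.99 and 21.2 in wild type and from 70.98 to 79.4 in the 9 mutant libraries. It was the most even of all members between libraries of the mutants. sks18, related to multicopper oxidases, was at 7.01, 6.72 and 14.6 in wild type and 55.1, 15.4 and 18.9 in gte4, where the second library was barely above the highest wild-type one. AT2G20870, a wall protein precursor, had the highest level per kilobase of exon of the set in all 4 genotypes, at 955 in wild type and 1970.1, 1936 and 2096 in the mutants.

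XTH15, which cuts and rejoins xyloglucan, was at 89.9, 79.96 and 160.3 in wild type, 220.0, 289 and 419 in gte4, 346, 323 and 718 in the double mutant and 357, 392 and 621 in the triple mutant. The library numbered 3 was the highest of its genotype in all 4 genotypes. PGL1, a 6-phosphogluconolactonase of the pentose phosphate pathway, had the same form, with 139, 172 and 273 in wild type, 345, 348 and 707 in gte4, 289, 422 and 804 in the double mutant and 363, 489.9 and 720.2 in the triple mutant. The third wild-type library of PGL1 was close to its lowest mutant library. PGL1 was the 1 member not called in all 3 comparisons, but it was called in each when the replicate number was fitted as a block. BAT1 also had this form: 3 of 45 members (6.67%) had their highest value in library 3 of every genotype, the same share as over all genes (6.67%).

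Sugar genes completed the group. SWEET13, a sucrose transporter that can also carry gibberellin, was at 68.3, 66.7 and 58.7 in wild type and from 149 to 220.4 in the mutants. GBSS1, the granule-bound starch synthase that makes amylose, was at 125, 148 and 134 in wild type, 382, 342 and 305 in gte4, 308, 289 and 276 in the double mutant and 362, 388 and 314 in the triple mutant. Both genes had wild-type libraries close together and well below the mutants. MIOX4, which opens the ring of myo-inositol on the way to wall sugars, went from 9.12 ± 1.11 to 24.5 ± 3.86 in gte4, 33.8 ± 15.5 in the double mutant and 30.8 ± 3.90 in the triple mutant.

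Defence genes numbered 6, with median ratios of 2.60 in gte4, 2.27 in the double mutant and 2.62 in the triple mutant. PBS3 encodes the GH3 enzyme that joins glutamate to isochorismate, a step of salicylic acid synthesis, and was the 1 member found on any of 15 gene lists compiled for the tissue and pathways. Its value was 165, 131 and 136 in wild type, 352, 226 and 327 in gte4, 315, 331 and 263 in the double mutant and 365, 371 and 304 in the triple mutant. The second gte4 library was the lowest of the 9 mutant libraries and above wild type, as the rule requires. Rap2.6L, an ERF transcription factor gene, lies 665 bases from PBS3 on the same strand, and these were the only members next to each other on a chromosome. It was at 2.82, 6.77 and 10.01 in wild type and from 14.6 to 31.9 in the mutants, at levels where single values carry little weight. Its mean over the 12 libraries, 20.0, was the nearest to the minimum.

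AT3G46370, a leucine-rich repeat receptor kinase gene, was at 341, 287 and 319.7 in wild type, 724, 575 and 729.9 in gte4, 932, 827 and 737 in the double mutant and 914, 845 and 748 in the triple mutant. TYRDC, which turns tyrosine into tyramine, was at 122, 129 and 112 in wild type and from 245 to 332 in the mutants. In both genes the wild-type libraries were close together and well apart from the mutants. CRK37, a cysteine-rich receptor-like kinase, went from 16.2 ± 1.15 to 48.7 ± 4.65, 37.6 ± 13.5 and 45.8 ± 10.5, and AT3G04220, of the TIR-NBS-LRR resistance genes, had a smallest ratio of 2.30.

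The gene lists were chosen with earlier results of these data known. Their counts are descriptions. Counts higher in all 3 mutants are to be set beside 5.43% of all genes. Counts higher in gte4, the double mutant and the triple mutant stand beside 12.1%, 11.6% and 15.4% of all genes. For lower calls these shares are 13.8%, 12.0% and 18.2%. The share of all genes lower in all 3 was not counted. Of the 22 other salicylic acid and immunity genes on the list that were tested, none was higher in all 3 mutants. WRKY54, a transcription factor gene on the list, was lower in all 3. In gte4 8 of them were higher and 1 lower, in the double mutant 0 higher and 2 lower, and in the triple mutant 2 higher and 3 lower. The count of 0 in all 3 became 2 without library 3 of the double mutant and 1 with TMM or median-of-ratios scaling or a minimum mean of 20, and the 8 in gte4 became 5 without gte4 library 1 or wild-type library 2. WRKY54 went from 1656 ± 10.1 to 1197 ± 119, 1097 ± 68.3 and 741 ± 114 (limma, adjusted p = 0.00178, 3.61e-04 and 2.86e-07). Among 24 jasmonate genes, VSP1 and VSP2, encoding vegetative storage proteins, were higher in all 3 and AOC2, an enzyme of jasmonate synthesis, was lower. A second jasmonate gene was lower in all 3 without library 1 or 3 of the double mutant, with scaling to equal totals or with a minimum mean of 20. VSP2 lay just outside the rule, with a smallest ratio of 1.98.

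The 3 hormone genes each encode an enzyme that changes the activity of a hormone. LOG5, which releases active cytokinin, was at 9.24, 8.67 and 12.6 in wild type, 38.4, 24.2 and 26.4 in gte4, 26.8, 28.5 and 21.02 in the double mutant and 26.7, 26.7 and 44.8 in the triple mutant. IAMT1, which methylates the auxin indole-3-acetic acid, was at 23.5, 29.96 and 34.1 in wild type and from 43.2 to 82.95 in the mutants. BAT1, an acyltransferase that lowers active brassinosteroid, was at 25.4, 33.8 and 57.02 in wild type and from 62.7 to 98.3 in the mutants, and had the smallest ratio of all members, 2.01. For these 3 genes, as for every member, the rule required no overlap with wild type. The third wild-type library of BAT1 came close to the lowest mutant library.

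AT3G12320 and AT5G06980, also called LNK3 and LNK4, belong to the small LNK family, whose best known members LNK1 and LNK2 are coactivators in the circadian clock. AT3G12320 was at 65.3, 89.1 and 60.4 in wild type, 209, 192 and 154 in gte4, 173, 178 and 124 in the double mutant and 214, 215 and 181 in the triple mutant. AT5G06980 was at 131, 118 and 134 in wild type, 359, 286 and 339 in gte4, 276, 217 and 326 in the double mutant and 295, 283 and 309 in the triple mutant. Library 3 of the double mutant was the lowest mutant library of AT3G12320 and the highest of its genotype for AT5G06980, so the spread of the 2 genes differed there. Both lie near a mutated gene. AT3G12320 is 51751 bases from EML1 with 21 genes between them, and AT5G06980 is 69880 bases from EML2 with 22 genes between them. Their ratios were 2.57 and 2.55 in gte4, whose label names no eml mutation, and 2.19 and 2.13 in the double mutant; the rule required a rise in both, so nothing is read from this about the nearby loci. Of the 17 tested genes between EML1 and AT3G12320, 2 were called higher in all 3 mutants, and of the 17 between EML2 and AT5G06980, 1 was, beside 5.43% of all genes.

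Among 17 listed clock genes outside the set, 2 were called higher in all 3 mutants and 4 lower. Over all genes 5.43% were higher in all 3. The share of all genes lower in all 3 was not counted, so nothing is read from the count of 4. CCA1, a morning transcription factor gene, went from 33.5 ± 4.34 in wild type to 137 ± 24.8 in gte4, 116 ± 20.7 in the double mutant and 195 ± 38.1 in the triple mutant (limma, adjusted p = 2.13e-06, 1.03e-05 and 8.53e-08). PRR9, a morning repressor gene, went from 30.2 ± 4.14 to 119 ± 25.2, 125 ± 59.5 and 191 ± 49.7 (limma, adjusted p = 6.68e-04, 8.14e-04 and 3.95e-05). Both met every condition of the rule except that their mutant means were more than 1.5 times apart. RVE2, a CCA1 relative, went from 1549 ± 233 to 301 ± 95.5, 392 ± 117 and 269.8 ± 92.8, and ELF4, an evening gene, from 3672 ± 62.8 to 1957 ± 82.5, 1902 ± 111 and 1669 ± 178; PRR3 and TOC1 were lower as well. The hour at which plants were collected is not given in the labels, and its part in these values was not tested. The 2 higher calls became 3 without wild-type library 1 or 2 and 4 without library 3 of the double mutant. With the replicate number fitted as a block they became 7. The 4 lower calls ran from 3 to 5 with 1 library left out and were 5 with the block.

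**Figure D3:**
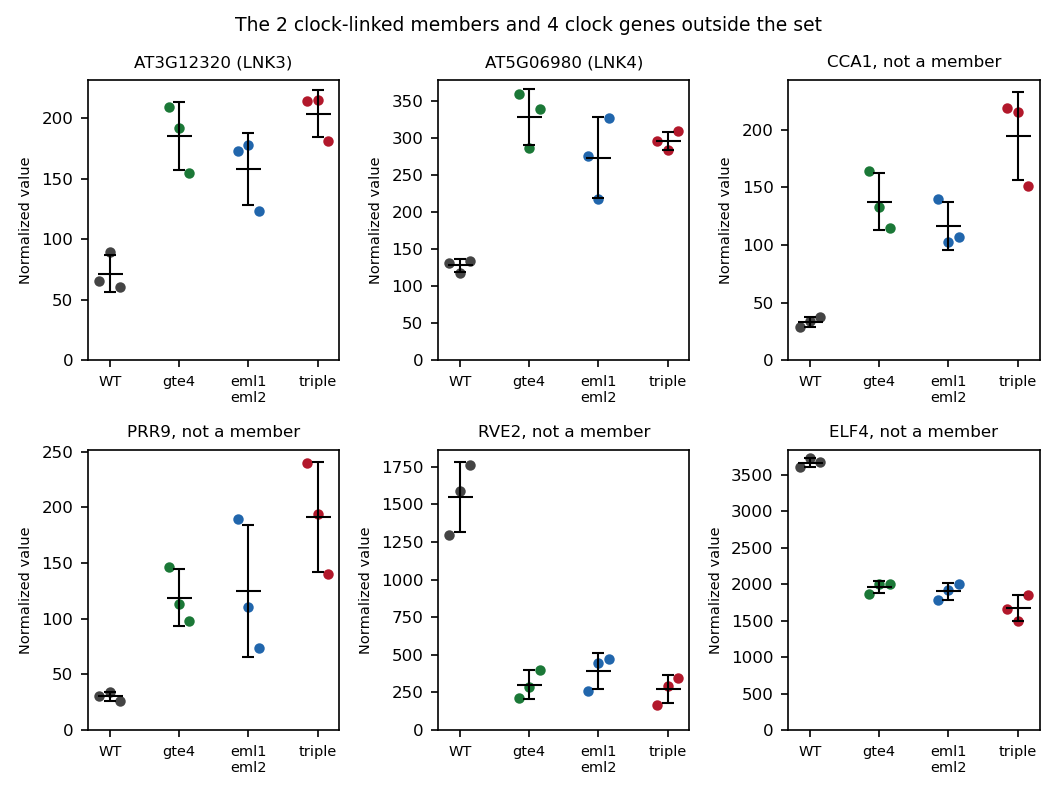
Deposited normalized values in each library (points) with mean and SD (bars, n = 3) of the clock-linked members AT3G12320 and AT5G06980 and of 4 clock genes outside the set. CCA1 and PRR9 were lowest in wild type like the members, while RVE2 and ELF4 were highest there.

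Kinases, transporters and other enzymes made up 8 members, with median ratios of 2.26, 2.32 and 2.55 in gte4, the double mutant and the triple mutant. CIPK20 and CIPK17 are protein kinases that act with calcium sensors of the CBL family. CIPK20 was at 497, 489 and 453 in wild type, 1057, 1056 and 938 in gte4, 1189, 1047 and 879 in the double mutant and 1340.0, 1162 and 971 in the triple mutant. CIPK17 was at 52.8, 53.1 and 60.9 in wild type, 113, 130.5 and 111 in gte4, 109, 137 and 98.03 in the double mutant and 159, 178 and 148 in the triple mutant. For CIPK17 every triple mutant library was above every other library, within the limit the rule sets. The other enzymes had ratios from 2.40 to 3.48 in the mutants: 2A6 and AT5G12270, both of the 2-oxoglutarate-dependent oxygenases, and AT1G72620, an alpha/beta hydrolase. BETA-OHASE 2, a beta-carotene hydroxylase, YSL7, of the yellow stripe-like metal transporters, and AT3G11680, of the malate transporter family, had smallest ratios of 2.09, 2.07 and 2.02.

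The last 7 members are little known. AT1G77960, annotated as a repressor ROX1-like protein, was at 52.2, 49.3 and 27.1 in wild type and from 98.01 to 151 in the mutants. AT1G58460 went from 32.9 ± 11.00 to means between 68.2 and 75.3, and AT4G13577 from 18.2 ± 1.86 to means between 42.1 and 55.0. AT1G23560, of the DUF220 family, AT1G51538, with a plant mobile domain, and AT5G61280, of the remorins, had smallest ratios of 2.48, 2.47 and 2.38. AT5G07570, a glycine and proline rich protein, had a ratio of 2.17 or more in each mutant.

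Members varied more between libraries of a genotype than other genes. The median coefficient of variation was 22.3% in wild type, 14.2% in gte4, 15.5% in the double mutant and 13.3% in the triple mutant, against 6.72% to 7.44% over all 18249 genes. A mean under 20 in wild type was found in 20 members, and whether low levels have a part in this was not tested. The summed value of the 45 genes was 0.913 to 1.08 times the wild-type mean in the wild-type libraries, 2.57 to 2.72 times in gte4, 2.63 to 2.82 times in the double mutant and 2.82 to 2.99 times in the triple mutant. Members had a median exon length of 1730 bases and 5 exons, close to the 1816 bases and 5 exons of all genes, and 5 of the 45 had 1 exon (11.1%, against 14.4%). By chromosome, 16 lay on 1, 3 on 2, 5 on 3, 9 on 4 and 12 on 5. These were 35.6%, 6.67%, 11.1%, 20.0% and 26.7%, against 26.3%, 15.1%, 20.0%, 15.3% and 23.3% of all genes. No member had a near-identical copy elsewhere in the genome, taken as at least 95% identity over at least 100 bases. Exons of 11 members (24.4%) overlapped another annotated gene, against 30.6% of all genes. The overlap covered 65.3% of the exon bases of 2A6 and 31.6% of those of XTH15. Reads of overlapping genes cannot be told apart where the strand is not stated.

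The nearest annotated genes on both sides of the members gave 58 that were tested and not members. Of these 13 were called higher in gte4, 15 in the double mutant and 15 in the triple mutant. These were 22.4%, 25.9% and 25.9%, beside 12.1%, 11.6% and 15.4% of all genes. In all 3 mutants 11 (19.0%) were higher, beside 5.43% of all genes. Split by distance, the 33 genes that lay nearer to their member or overlapped it held 5 of the 11. The 25 farther away held 6. Whether closeness or shared reads have a part in these calls was not tested. Lower calls numbered 8, 8 and 14, or 13.8%, 13.8% and 24.1%, beside 13.8%, 12.0% and 18.2% of all genes. Among the 11, 6 kept all 3 calls whichever library was left out; the genes named here were chosen after their values were seen. GRP20, an oleosin-like gene of the tapetum, lies 141 bases from AT5G07570 and went from 9.70 ± 6.74 to 55.1 ± 8.29, 129 ± 14.8 and 33.9 ± 13.8. DOG1, a gene of seed dormancy, lies 625 bases from CIPK20 and went from 20.8 ± 3.46 to 65.8 ± 2.57, 46.1 ± 4.56 and 74.1 ± 13.9. PIF7, a light signalling transcription factor gene, lies 2790 bases from AT5G61280 and went from 477 ± 39.7 to 653 ± 46.1, 656 ± 6.83 and 743 ± 31.7. ATA27 lost its call in the triple mutant without either of 2 triple mutant libraries, with an adjusted p of 0.0653 (limma) without library 2. Of the 5 flanks that lost a call, CRK36 and CRK38, on both sides of CRK37, are of its own family.

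The annotation names a closest relative for 40 of the 45 members, and 31 of these relatives were tested and not members. Of these 4 (12.9%) were called higher in all 3 mutants, beside 5.43% of all genes. In gte4 6 were higher and 3 lower, in the double mutant 8 and 5, and in the triple mutant 9 and 8; the shares over all genes were 12.1%, 11.6% and 15.4% higher and 13.8%, 12.0% and 18.2% lower. CIPK1, the relative of CIPK17, went from 821 ± 43.6 to 1179 ± 47.4, 1157 ± 18.9 and 1335 ± 33.02, and AT2G38995, the relative of FOP1, from 389 ± 43.8 to 569 ± 25.5, 616 ± 47.5 and 661 ± 38.3. Both kept their 3 calls whichever library was left out, while sks4 and AAS, the relatives of sks18 and TYRDC, lost a call in 6 and 1 of the 12 such fits; AAS lost it without wild-type library 3. The relatives of CIPK20 and MGD3 went the other way. SIP1, the relative of CIPK20, went from 552 ± 51.9 to 398 ± 59.4, 404 ± 41.4 and 393 ± 32.9. MGD2, which has the same role as MGD3, fell from 281 ± 6.10 to 213 ± 24.5, 222 ± 11.99 and 217 ± 10.6 (limma, adjusted p = 0.00786, 0.0225 and 0.00945).

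Some listed genes of flowers and anthers outside the set were called higher in all 3 mutants, as were 5.43% of all genes. In gte4, the double mutant and the triple mutant 12.1%, 11.6% and 15.4% of all genes were higher. Lower calls were 13.8%, 12.0% and 18.2% of all genes. Of 18 floral identity genes 6 were called higher in all 3 mutants, and 6 were higher in gte4, 10 in the double mutant and 8 in the triple mutant, with none lower. SEP3 went from 112 ± 10.5 to 267 ± 22.6, 355 ± 76.6 and 287 ± 43.2, and PI from 49.2 ± 12.8 to 112 ± 15.6, 151 ± 31.96 and 132 ± 35.02. Both met every condition of the rule and were left out only by name, so nothing is read from their calls. The others of the 6 were STK, AP3, SEP2 and AP1. STK, at 2.91 ± 2.59 in wild type, lost its call in gte4 without gte4 library 1 (limma, adjusted p = 0.208). Of 28 tapetum and pollen wall genes 9 were higher in all 3, among them GRP17, TSM1 and ATA27. GRP17 lost its call in the triple mutant without wild-type library 2 (limma, adjusted p = 0.117). In all, 12 of the 28 were higher in gte4, 21 in the double mutant and 21 in the triple mutant, with 1 lower in gte4 and 1 in the triple mutant. The 9 became 5 without triple mutant library 2 or 3 and 4 with only the 2 genotypes of a comparison fitted. The flowering promoters SPL5, SPL9 and AGL20 (SOC1) were called higher in all 3 among 9 tested. Of 7 leaf photosynthesis genes CAB2 was higher in all 3 and RBCS2B and CA1 lower; CAB2 lost a call without wild-type library 1 or triple mutant library 1 or 3, and with only 2 genotypes or no moderation fitted. None of 9 ethylene-jasmonate defence genes or 6 senescence genes was called in all 3, except 1 of the former without wild-type library 2.

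Set side by side, the summed floral list ran from 0.894 to 1.08 times the wild-type mean in wild type, 1.29 to 1.34 times in gte4, 1.45 to 1.78 times in the double mutant and 1.29 to 1.56 times in the triple mutant. The tapetum list ran from 0.797 to 1.14 times in wild type, 1.55 to 2.06 times in gte4, 2.70 to 3.65 times in the double mutant and 1.64 to 2.26 times in the triple mutant. Both lists had their highest mean in the double mutant. The evenness of the members' sums is set by the rule and is no contrast to this. The floral sums include SEP3 and PI, which met the rule themselves. How far flower tissue has a part in the members' values was not tested. Of 7 pollen genes, 5 were under 1 in wild type. Of the 5 tested, 0 were higher in gte4, 3 in the double mutant and 0 in the triple mutant. The shares over all genes were 12.1%, 11.6% and 15.4%. TUB9 was lower in all 3. TUB9 lost a call without wild-type library 1 or 3, gte4 library 1 or 2, or triple mutant library 2. The 4 seed storage genes added up to between 0.917 and 7.78 in every library.

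Of 14 anthocyanin and flavonoid genes 6 were called higher in all 3 mutants, beside 5.43% of all genes. In gte4 11 were higher, in the double mutant 7 and in the triple mutant 7, beside 12.1%, 11.6% and 15.4% of all genes. LDOX went from 137 ± 26.3 to 302 ± 34.1, 258 ± 19.03 and 265 ± 28.7, and DFR from 148 ± 29.98 to 339 ± 9.97, 299 ± 10.9 and 276 ± 51.98; both kept their calls whichever library was left out. The 6 became 3 without wild-type library 1 or without library 1 or 2 of the double mutant. Of 10 root genes 2, IRT1 and SHR, were called higher in all 3, and none without library 2 of the double mutant. The root sum ran from 1.36 to 1.48 times the wild-type mean in gte4, 1.08 to 1.097 times in the double mutant and 1.37 to 1.43 times in the triple mutant.

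**Figure D4:**
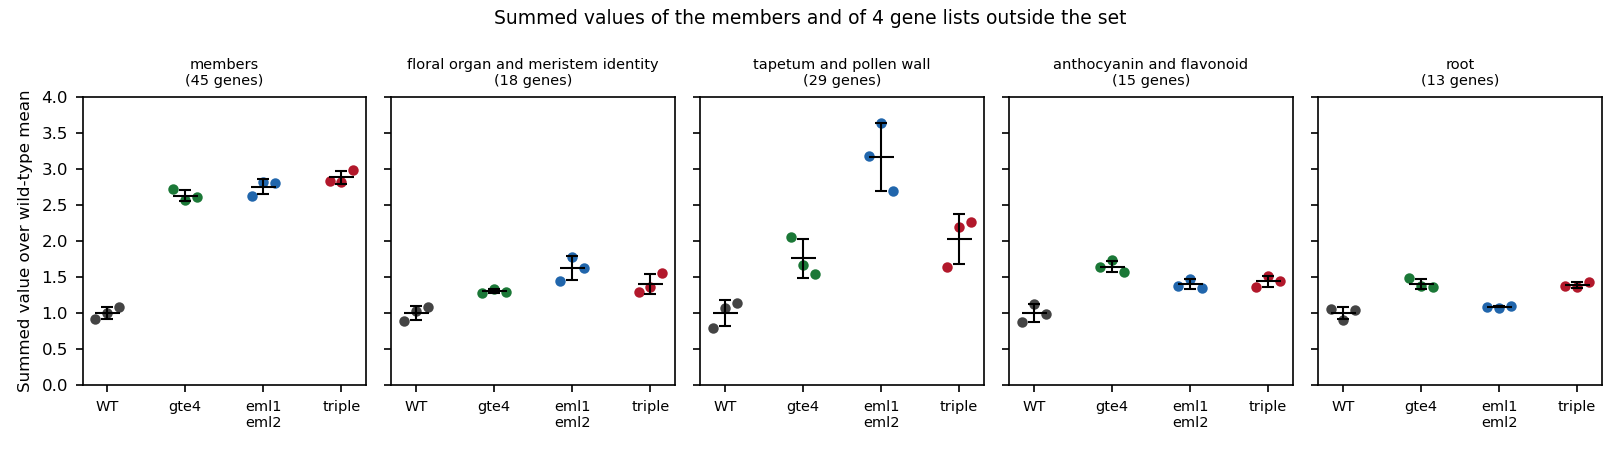
Summed deposited values over the wild-type mean of the 45 members and of 4 gene lists outside the set, 1 point per library, with mean and SD of each genotype (bars, n = 3). The floral list includes SEP3 and PI, which met the rule and were left out by name. The members lie between 2.57 and 2.99 in all 9 mutant libraries, an evenness set by the rule, and the tapetum list reaches 2.70 to 3.65 in the double mutant and 1.55 to 2.26 in the other mutants.

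Another 50 genes met every condition except that their mutant means were more than 1.5 times apart. They had larger median log2 ratios, 2.23 in gte4, 2.47 in the double mutant and 2.18 in the triple mutant. The limit of 1.5 parted them from the members, and means further apart require a higher largest ratio. Nothing is therefore read from this difference. In 21 of these 50, the double mutant was highest and the triple mutant lowest, the pattern of GRP17, ATA27 and TSM1. The share of all genes with this pattern was not counted. The members had smaller medians, although AT1G75945, AT3G05945 and CYP96A15 were above the medians of the 50 in every mutant. The median exon length was 1730 bases in the members against 1217 in the 50. In the mirrored set, 30 genes were at most 0.5 times wild type in all mutants and alike; among them the cold-response genes KIN2 and COR15A had the highest values.

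**Figure D5:**
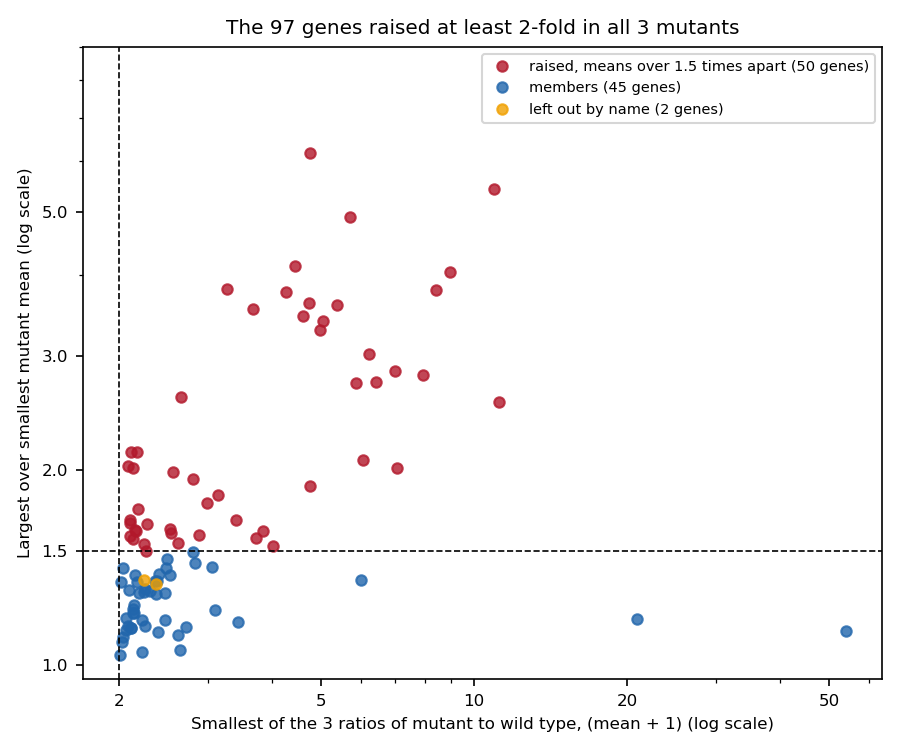
The 97 genes raised at least 2-fold in all 3 mutants with no overlap with wild type, by the smallest of their 3 ratios to wild type and the ratio of the largest to the smallest mutant mean (both log axes); dashed lines are the limits of 2 and 1.5. The 45 members lie below the 1.5 line, most of them with a smallest ratio under 3, and AT3G05945 and AT1G75945 stand alone at 21.0 and 53.9.

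Near the limits the set shades into its surroundings. At the minimum mean, Rap2.6L and AT3G11680 were inside at 20.0 and 22.3 and AT5G09570 and AT1G13680 outside at 17.6 and 17.2. At the minimum ratio, BAT1 and AT3G11680 were inside at 2.01 and 2.02 and AT1G10980 and VSP2 outside at 1.99 and 1.98. At the limit of 1.5 between mutant means, XTH15 and AT1G23560 were inside at 1.49 and 1.46 and AT5G03545 and BGLU45 outside at 1.501 and 1.53. The lowest mutant library was 1.06 times the highest wild-type library in PGL1 and sks18, and FAF2, at 0.865, was the 1 gene outside on this condition alone.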

How the data were processed

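The authors deposited 1 value per gene and library for 12 libraries, a normalized signal that is not whole-numbered and from which whole reads could not be recovered. Per the submitters' processing notes, bcl2fastq, HISAT2 and edgeR were used with TAIR10; versions, the counting program, strand setting, annotation and exact normalization are not given in the sources used here, and the last decides how far levels compare across libraries. All 12 value columns were mapped to samples by name.

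The members and gene lists were chosen with earlier results of these data known. Ratios were taken on genotype mean + 1. log2(value + 1) was fitted with limma 3.58.1 (R 4.3.3; trend and robust moderation) over 22315 genes with a mean of at least 1, with Benjamini-Hochberg adjustment and a threshold of 0.05; the fit was tested on simulated data. An exact permutation test of 3 against 3 libraries cannot go below p = 0.1. Copies were sought with blastn 2.17.0, and promoters and coordinates come from RefSeq (TAIR10.1). Alternatives were other scalings, pseudocounts, filters, limits of the rule, a replicate block and leaving out each library.

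Genes were named by rule: the 20 members with the largest smallest ratio, list members, neighbours, genes at the limits, up to 4 per group by level, and up to 3 per list called in all comparisons. GDPD6, LUP5, SHN1, BETA-OHASE 2, YSL7, AT3G04220, AT5G07570 and the flanking and related genes were named after their values were seen. For the floral and clock lists more than 3 genes were named.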

Additional observations from a re-analysis of the deposited data

How the results depend on the processing

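The set depends most on its own limits: 45 genes became 25 with a minimum mean of 50, 225 and 6 with a minimum ratio of 1.5 and 3, and 19 and 68 with mutant means at most 1.2 and 2 times apart. Other scalings gave 43 to 46 genes, and 40 members stayed under all 3. Leaving out 1 library gave 40 to 63 genes, and 17 members stayed in all 12 such sets. Calls over all genes with 1 library left out ran from 4275 to 5791 in gte4 (5780 with all), 3756 to 5500 in the double mutant (5271) and 6067 to 7673 in the triple mutant (7495). The smallest ratio of a member never reversed in the settings run and was 0.74 on the log2 scale at its lowest. The rule put every mutant library above every wild-type library. Leaving out a library or changing the pseudocount therefore could not reverse a ratio, and nothing is read from this.

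Deviations from the genotype mean were compared between wild-type and mutant libraries of the same replicate number. They correlated at 0.117 to 0.158 for number 1, -0.02 to 0.06 for number 2 and 0.153 to 0.157 for number 3. Among the libraries of other genotypes, each of the 12 was best matched by a library of its own number. Same-numbered libraries thus shared part of their deviations. The labels do not say what they share, so the main fit took no pairs. With a replicate block 6963, 6587 and 8764 genes were called in the 3 comparisons. The block called all 45 members higher in each, PGL1 included. Nothing is read from this, since the rule used these contrasts. Over all 22315 genes it called 3330 higher in gte4, 3285 in the double mutant and 4116 in the triple mutant. Of the lists it gave 7 clock genes higher and 5 lower in all 3 mutants (2 and 4 without it) and 2 salicylic acid genes higher and 2 lower (0 and 1). The shares of all genes higher or lower in all 3 were not counted for the block, so nothing is read from these counts. Single reads cannot be counted in these values, so the depth behind a low wild-type level, on which the ratios of 20 members rest, is unknown.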
